A study of Mus musculus with 3 samples.

Results

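Lcn2, Clu, Spp1, Gdf15, Havcr1, Vcam1, Tnfrsf12a, Krt8, Krt18 and Krt19 are genes whose transcripts are widely used as signs of injured kidney tubules, and they were followed here from segment to segment of the mouse nephron. All 10 were found by their symbols among the 32285 genes of each library. They were taken by name and not for their values in these libraries, although the list was drawn up with earlier results of the same data known.

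Kidneys of male mice aged 28 weeks in 3 groups were taken through droplet single-cell RNA sequencing. The db/db fructose group carried 2 copies of the db leptin receptor mutation and ate a diet with 60% fructose. The db/db control group had the same genotype and a fructose-free control diet, and the db/m control group carried 1 normal copy and ate that control diet too. Diets ran from 8 weeks of age for 20 weeks, so no db/m mice on fructose and no lean mice without the db allele were analysed here. The db/db mouse lacks the long form of the leptin receptor in every cell and becomes obese and diabetic as a whole animal, so that its kidney differs from that of db/m mice in weight, appetite and blood glucose together. Each group gave 1 library from whole kidneys. How many mice went into it is not stated in the labels, and no difference between groups has a replicate check. No test was run, and every 95% interval covers counting error only.

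The tubule runs from the proximal tubule, which reabsorbs most of the filtrate, through the thin limbs and the thick ascending limb, with the macula densa at its end, to the distal convoluted tubule, the connecting tubule and the collecting duct with its principal and intercalated cells. When tubule cells are damaged they lose transporters and switch on genes for secreted proteins (lipocalin 2, clusterin, osteopontin, growth differentiation factor 15), surface proteins (kidney injury molecule 1, vascular cell adhesion molecule 1, the TWEAK receptor) and simple keratins. Several of these genes are also active in healthy kidneys in particular segments, so a rise measured in a whole kidney does not say which segment it came from.

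The db/db fructose library held 20383 barcodes and 42028885 UMIs (unique molecular identifiers, 1 per captured transcript), the db/db control library 26513 barcodes and 52704335 UMIs, and the db/m control library 13524 barcodes and 31660184 UMIs. After filtering, 16049 db/db fructose, 16227 db/db control and 9940 db/m control cells were kept, with median depths between 1531 and 1679 UMIs. The db/db control library stood apart in its mitochondrial share, whose median per cell was 24.6%, against 10.6% in the db/db fructose and 15.1% in the db/m control library. Cells of clusters that could not be named made up 8.20% of the db/db fructose, 19.6% of the db/db control and 3.73% of the db/m control cells. Both comparisons below, db/db fructose over db/db control and db/db control over db/m control, use that library, and its part in the results was not tested. Between 379 and 780 barcodes were shared by any 2 libraries, at most 3.83% of the smaller one. Clusters were named from markers that include none of the 10 genes, and class markers stood among the 10 leading genes of every cluster of the 4 tubule classes compared below, except 1 proximal tubule-like cluster and 1 thick ascending limb-like cluster, which is described further on. For each of these 4 classes a different cluster was the largest in each library. The largest proximal tubule-like cluster was number 20 in db/db fructose, 22 in db/db control and 32 in db/m control, all 3 led by Snhg11. The largest thick ascending limb-like one was number 57 in db/db fructose (led by Enox1), 89 in db/db control (led by Umod) and 59 in db/m control (led by Slc12a1). Among distal convoluted tubule-like clusters, all led by Slc12a3, it was number 60 in db/db fructose, 63 in db/db control and 66 in db/m control. Among connecting tubule and principal-like clusters it was number 83 in db/db fructose (led by Slc8a1), 82 in db/db control and 88 in db/m control (both led by Aqp2).

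Levels are given as CPM (counts per 1000000 UMIs, over the summed cells of a class in a library), with exact Poisson 95% intervals where printed. Counted over the 8 named classes that had 50 cells or more in each library, 7 of the 10 genes had the same highest class in all 3 libraries. Lcn2, Gdf15, Krt8, Krt18 and Krt19 were highest in connecting tubule and principal-like cells, Spp1 in thick ascending limb-like cells and Vcam1 in mononuclear phagocyte-like cells. The other 3, Clu, Havcr1 and Tnfrsf12a, had no single highest class. These ranks use the levels alone. The intervals of the first and second class overlapped for Vcam1 in every library and for Krt19 in db/db fructose. When 4 smaller classes were added, among them macula densa-like and thin limb-like cells, 4 genes kept 1 highest class: Spp1 (macula densa-like), Vcam1 (mononuclear phagocyte-like), Krt18 (connecting tubule and principal-like) and Krt19 (thin limb-like). The first and second intervals again overlapped for Vcam1 in every library. For Krt19 they overlapped in db/db control, where the thin limb-like level rests on 1 UMI. None of the 10 was highest in proximal tubule-like cells in all 3 libraries, although these were the largest class, with 8771 db/db fructose, 6736 db/db control and 5967 db/m control cells.

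**Figure D1:**
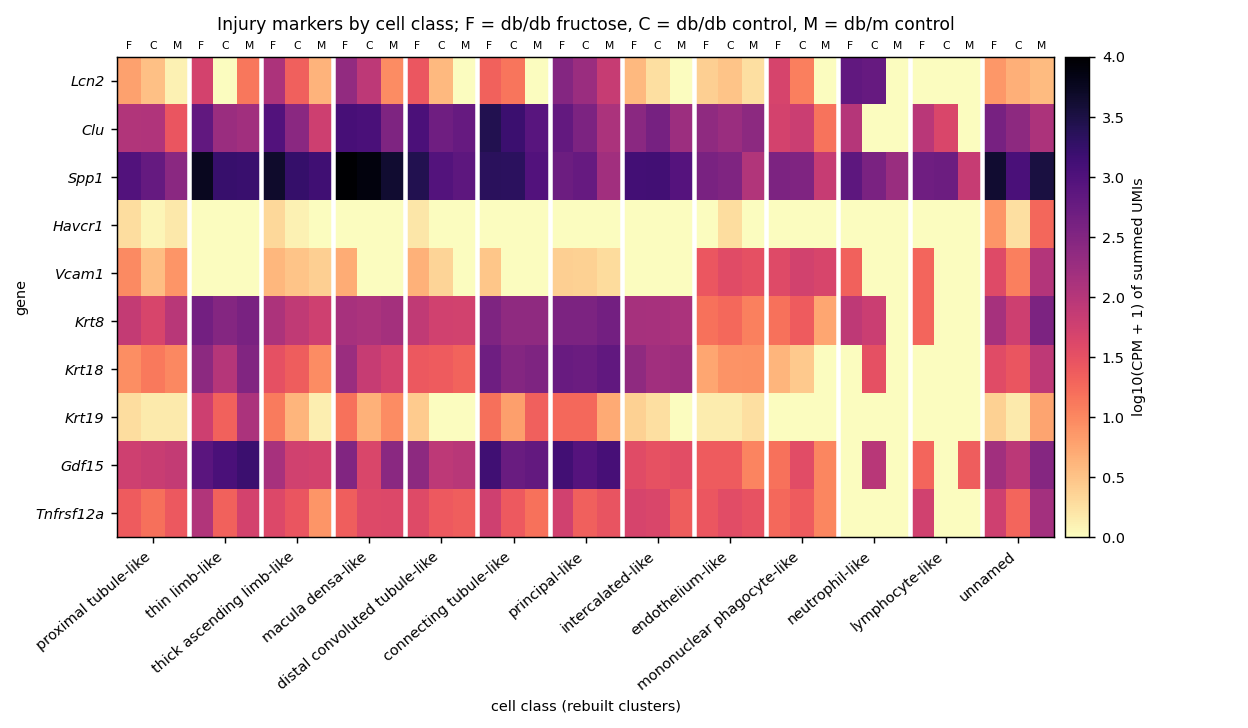
Level of the 10 genes, as log10(CPM + 1), with genes in rows and classes in 13 columns, the last of them the unnamed clusters. Within each column stand the db/db fructose (F), db/db control (C) and db/m control (M) libraries. Spp1 is the deepest row of colour across the tubule, Lcn2 stands out in principal-like and neutrophil-like cells, Krt18 in connecting tubule and principal-like cells, and Havcr1 is near 0 throughout.

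**Figure D2:**
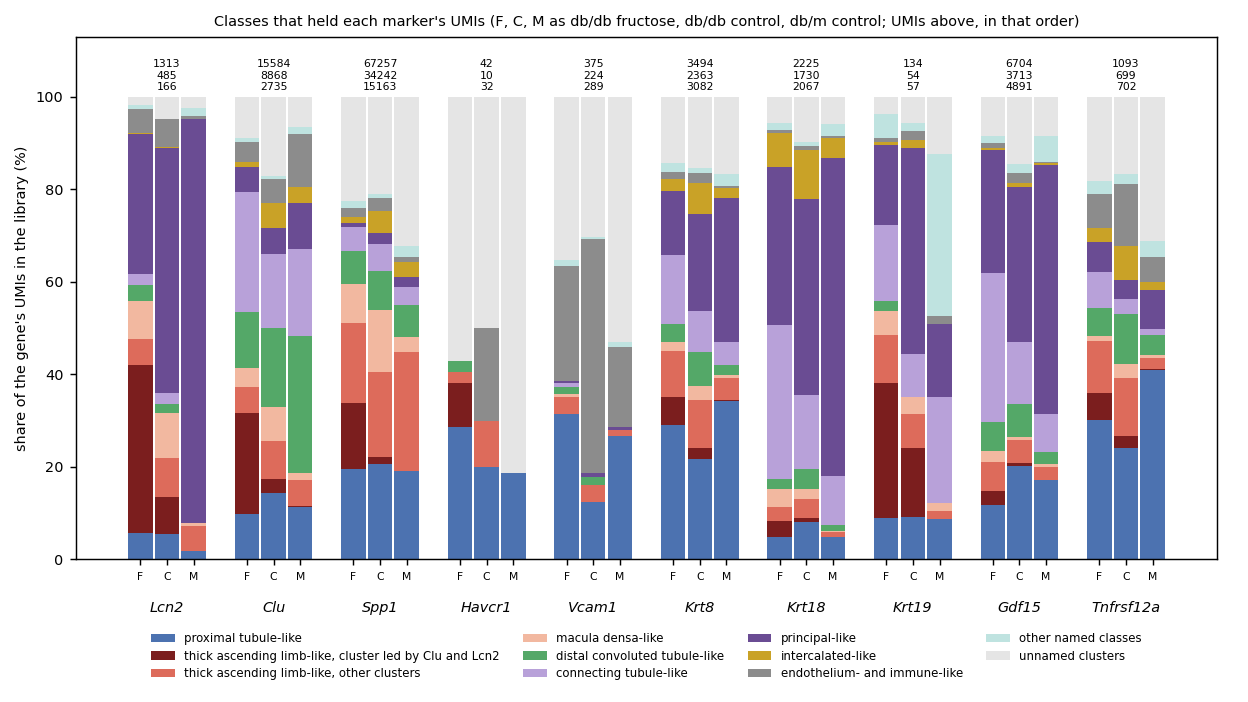
Share of each gene's UMIs (percent) found in each cell class, with 1 bar per library (db/db fructose, db/db control, db/m control) and the total UMIs of the gene above the bar. Principal-like cells held 30.5% of the Lcn2 UMIs in db/db fructose and 87.3% in db/m control, and thick ascending limb-like cells 42.04% in db/db fructose and 5.42% in db/m control.

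Droplets also take up free RNA, so blood cells that should lack these tubule genes serve as a gauge. Erythroid-like cells, with median depths of 1311 UMIs in db/db fructose, 1912 in db/db control and 1760.5 in db/m control, held Spp1 at 1017 CPM in db/db fructose, 527 in db/db control and 264 in db/m control cells. Their Clu level was 129 CPM in db/db fructose, 142 in db/db control and 56.01 in db/m control cells. For Gdf15 it was 41.1 in db/db fructose, 33.4 in db/db control and 16.00 in db/m control cells, for Krt8 23.5 in db/db fructose, 33.4 in db/db control and 40.01 in db/m control cells, and for Krt18 11.8 in db/db fructose, 16.7 in db/db control and 12.00 in db/m control cells. Their Lcn2 came to 4 UMIs in db/db fructose, 0 in db/db control and 1 in db/m control cells, and Tnfrsf12a was at 11.8 in db/db fructose, 20.9 in db/db control and 12.00 in db/m control cells. The Gdf15, keratin and Tnfrsf12a levels rest on 2 to 10 UMIs each. A level in another class that is no higher than these is read as background.

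Lcn2 encodes lipocalin 2 (NGAL), a secreted protein that binds bacterial iron carriers and is measured in urine as an early sign of tubular damage. The gene, ENSMUSG00000026822, lies on chromosome 2 at 32384633 to 32388252 on the minus strand (GRCm38, mm10). In principal-like cells its level was 302 CPM (95% interval 274 to 334) in db/db fructose, 183 CPM (95% interval 161 to 207) in db/db control and 67.8 CPM (95% interval 57.2 to 79.8) in db/m control cells, and these intervals did not overlap. After every cell was thinned to 1000 UMIs, 13.4% of the db/db fructose, 7.46% of the db/db control and 3.85% of the db/m control principal-like cells held an Lcn2 UMI. Unthinned, the share was 27.6% in db/db fructose, 16.6% in db/db control and 13.6% in db/m control. In thinned erythroid-like cells it was 2.56% in db/db fructose, 0% in db/db control and 0% in db/m control. Connecting tubule-like cells had far less, 19.8 CPM in db/db fructose and 13.1 CPM in db/db control cells, and no UMI in db/m control cells, where 3 counts would be 4.69 CPM. The db/db fructose value lay under the erythroid-like level of that library, 23.5 CPM on 4 UMIs, and is read as background. Of all Lcn2 UMIs, principal-like cells held 30.5% in db/db fructose, 52.8% in db/db control and 87.3% in db/m control. In db/db fructose the larger number of its UMIs, 552, came from thick ascending limb-like cells, against 400 from principal-like cells.

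The thick ascending limb-like level of Lcn2 was 119.8 CPM (95% interval 110.0 to 130.2) in db/db fructose, 20.4 CPM (95% interval 16.2 to 25.4) in db/db control and 3.28 CPM (95% interval 1.50 to 6.23) in db/m control cells. Most of the db/db fructose value came from 36 cells of 1 cluster, in which Lcn2 reached 1638 CPM (478 UMIs, in 27 of the 36 cells). Macula densa-like cells held 213 CPM in db/db fructose, 84.2 in db/db control and 8.20 in db/m control cells, the last from 1 UMI. Distal convoluted tubule-like cells held 26.1 CPM in db/db fructose and 2.85 CPM in db/db control cells, and no UMI in db/m control cells (2.18 CPM at 3 counts). The 4 Lcn2 UMIs of the erythroid-like db/db fructose cells come to 23.5 CPM (95% interval 6.40 to 60.2), so the distal value of that library is not clear of background. Proximal Lcn2 stayed at 5.24 CPM in db/db fructose, 2.34 in db/db control and 0.263 in db/m control cells, which is background. Neutrophils store lipocalin 2, and neutrophil-like cells had 660.3 CPM in db/db fructose (38 cells) and 592 CPM in db/db control (20 cells). The 4 neutrophil-like cells of db/m control held no UMI, which allows up to 564 CPM. Lymphocyte-like cells held no Lcn2 UMI in any library.

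Clu encodes clusterin, a secreted chaperone that coats misfolded proteins and dying cells. The gene (ENSMUSG00000022037, chromosome 14, 65968483 to 65981547, plus strand) was highest among named classes in connecting tubule-like cells, at 2664 CPM (95% interval 2583 to 2748) in db/db fructose, 1539 CPM (95% interval 1459.8 to 1622) in db/db control and 806 CPM (95% interval 738 to 879) in db/m control cells. Principal-like cells held less, 634 in db/db fructose, 355 in db/db control and 126 in db/m control cells. Distal convoluted tubule-like cells had 1083 CPM in db/db fructose, 485 in db/db control and 586 in db/m control cells, so that this class, and not the connecting tubule and principal-like one, led in the db/m control library. Macula densa-like cells had 1228 CPM in db/db fructose, 1117 in db/db control and 344 in db/m control cells. Thick ascending limb-like cells held 933 CPM in db/db fructose, 257 in db/db control and 57.97 in db/m control cells, and outside the cluster of 50 cells 203 in db/db fructose, 193 in db/db control and 57.4 in db/m control cells. The db/m control value there lay at the erythroid-like level. Clu in proximal tubule-like cells was 108 CPM in db/db fructose, 111 in db/db control and 27.4 in db/m control cells, no higher than in erythroid-like cells in any library. In thinned cells, too, the share of proximal tubule-like cells with a Clu UMI was 9.74% in db/db fructose, 10.6% in db/db control and 2.86% in db/m control. Among erythroid-like cells it was 11.5% in db/db fructose, 12.7% in db/db control and 5.88% in db/m control. Unthinned, the proximal share was 15.2% in db/db fructose, 16.4% in db/db control and 4.73% in db/m control.

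Spp1 encodes osteopontin, a secreted phosphoprotein that binds integrins and calcium crystals and that the loop of Henle makes in healthy kidneys. The gene is ENSMUSG00000029304 on chromosome 5, 104435118 to 104441050, plus strand. Among named classes it was highest in macula densa-like cells, at 11151 CPM (95% interval 10861.5 to 11447) in db/db fructose, 8051 CPM (95% interval 7820.0 to 8288) in db/db control and 4221 CPM (95% interval 3864 to 4602) in db/m control cells. Thick ascending limb-like cells had 4614 CPM in db/db fructose, 1750.1 in db/db control and 1416 in db/m control cells. Distal convoluted tubule-like cells held 2718 CPM in db/db fructose, 923 in db/db control and 745 in db/m control cells. The level in connecting tubule-like cells was 2257 in db/db fructose, 2137 in db/db control and 945 in db/m control cells, above the thick ascending limb-like level in the db/db control library, and in principal-like cells 515 in db/db fructose, 601 in db/db control and 155 in db/m control cells. The principal-like levels of db/db fructose and db/m control lay under the erythroid-like levels and are read as background. That of db/db control lay close above the erythroid-like level. The thin limb-like cells, few in number, had 5781 in db/db fructose, 1711 in db/db control and 1615 in db/m control cells. Proximal tubule-like cells had 934 CPM in db/db fructose, 616 in db/db control and 255 in db/m control cells, close to erythroid-like cells in each library. Among thinned proximal tubule-like cells, the share with an Spp1 UMI was 57.1% in db/db fructose, 44.6% in db/db control and 19.8% in db/m control. Among erythroid-like cells it was 60.3% in db/db fructose, 37.3% in db/db control and 21.01% in db/m control. Unthinned, the proximal share was 71.9% in db/db fructose, 61.1% in db/db control and 29.98% in db/m control. Proximal tubule-like cells had median depths of 1492 UMIs in db/db fructose, 1601 UMIs in db/db control and 1524 UMIs in db/m control. The few lymphocyte-like cells held Spp1 at 474 CPM in db/db fructose, 508 in db/db control and 66.4 in db/m control cells. Proximal Clu and Spp1 are therefore given as values and are not read as transcription by proximal cells. An unnamed cluster of 38 cells led by Fst, Cryab, S100a6 and Aqp1 had Spp1 at 22483 CPM in its db/db fructose, 15129.6 in its db/db control and 21384 in its db/m control cells.

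Spp1 and Gdf15 were the secreted members that were higher by 1.5-fold or more in both thick ascending limb-like and distal convoluted tubule-like cells of db/db fructose over db/db control and had a RefSeq promoter clear of exons. Their upstream bases are shown for that reason, 5′ to 3′ on the gene's strand and ending at the base before the annotated start (GRCm38.p6, chr5:104434861-104435110 for Spp1 and chr8:70632457-70632706 for Gdf15). The capitals mark the only motif match in them.
Spp1: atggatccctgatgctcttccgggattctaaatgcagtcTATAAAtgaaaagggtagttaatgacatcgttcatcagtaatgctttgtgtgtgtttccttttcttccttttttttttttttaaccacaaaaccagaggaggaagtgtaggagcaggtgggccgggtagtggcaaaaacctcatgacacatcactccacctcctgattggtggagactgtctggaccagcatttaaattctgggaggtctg
Gdf15: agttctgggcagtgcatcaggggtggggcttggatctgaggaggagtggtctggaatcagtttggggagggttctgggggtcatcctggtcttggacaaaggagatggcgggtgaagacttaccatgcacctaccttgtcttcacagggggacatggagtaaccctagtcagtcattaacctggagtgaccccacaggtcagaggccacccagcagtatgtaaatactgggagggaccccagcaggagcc
Both strands were searched for TGACTCA (AP-1), TGATGNAA (ATF4), TTCNNNGAA (STAT), GGAATG (TEAD), TATAAA (the core promoter box) and the NF-kB and HNF1 motifs. The single match in these windows was TATAAA in Spp1, 211 bases before the start, a run found in 12.4% of 32851 mouse promoters of 250 bases. The same search found AP-1 in 4.46%, NF-kB in 1.41%, ATF4 in 3.45%, STAT in 7.02%, TEAD in 12.6% and HNF1 in 0.0609% of promoters. The absence of a match says only that these letters are not in these windows. RefSeq promoters were matched for 7 of the 10 genes, and Clu, Vcam1 and Krt19 were not among them.

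Gdf15 encodes growth differentiation factor 15, a stress-induced secreted factor of the transforming growth factor beta family that acts on a receptor in the hindbrain. It lies on chromosome 8, 70629393 to 70632456, minus strand. Its level in connecting tubule-like cells was 1423 CPM (95% interval 1363 to 1484) in db/db fructose, 549 CPM (95% interval 502 to 599) in db/db control and 626 CPM (95% interval 566 to 690.4) in db/m control cells. Principal-like cells held 1354 CPM (95% interval 1292 to 1418) in db/db fructose, 886 CPM (95% interval 838 to 937) in db/db control and 1234 CPM (95% interval 1187 to 1282) in db/m control cells, so in these cells db/db control was the lowest of the libraries. Of all Gdf15 UMIs both classes together carried 58.8% in db/db fructose, 46.97% in db/db control and 62.1% in db/m control. Of all cells they made up 5.12% in db/db fructose, 5.18% in db/db control and 7.08% in db/m control. Thin limb-like cells had 792 CPM in db/db fructose, 1147 in db/db control and 1571 in db/m control cells, from 12 to 24 cells. Distal convoluted tubule-like cells held 239 CPM in db/db fructose, 83.05 in db/db control and 92.9 in db/m control cells, and thick ascending limb-like cells 137 in db/db fructose, 54.5 in db/db control and 50.7 in db/m control cells. Proximal tubule-like cells had 55.5 CPM in db/db fructose, 64.9 in db/db control and 73.3 in db/m control cells, above the erythroid-like levels, which rest on 4 to 8 UMIs. The free RNA estimated from lymphocyte-like cells came to 79.04 CPM in db/db fructose, 33.9 CPM in db/db control and 71.2 CPM in db/m control. Subtracting it leaves 0 in db/db fructose, 31.00 in db/db control and 2.12 in db/m control in proximal tubule-like cells. That estimate is scaled on proximal tubule markers. The few lymphocyte-like cells themselves held Gdf15 at 13.8 CPM over the libraries together, below the estimates. The gauges differ, so proximal Gdf15 is not called clear of background. In thick ascending limb-like cells the subtraction leaves 58.1 in db/db fructose, 20.6 in db/db control and 0 in db/m control.

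Havcr1 encodes kidney injury molecule 1, a receptor for the lipids of dying cells that injured proximal tubules put on their surface and that is a widely used marker of proximal injury. It lies on chromosome 11, 46735080 to 46779578, plus strand. It was close to absent: 42 UMIs in 21 db/db fructose cells, 10 UMIs in 8 db/db control cells and 32 UMIs in 5 db/m control cells, and 23 of the db/m control UMIs (71.9%) came from 1 cell. The proximal tubule-like level was 0.849 CPM (95% interval 0.439 to 1.48) in db/db fructose, 0.173 CPM (95% interval 0.0210 to 0.626) in db/db control and 0.526 CPM (95% interval 0.193 to 1.15) in db/m control. Of the proximal tubule-like clusters, 1 of 44 cells (3 of db/db fructose, none of db/db control and 41 of db/m control) was highest, with 3 of the 12 proximal db/db fructose UMIs, all in 1 cell, and 5 of the 6 proximal db/m control UMIs, all in 1 cell. Its leading genes were Cd74, Cryab, Kap, Cpn1 and Gstm5, and in its db/m control cells Krt8 was at 396 CPM, Gdf15 at 412 CPM, Tnfrsf12a at 176 CPM and Vcam1 at 62.6 CPM. Thick ascending limb-like cells held 5 UMIs in db/db fructose (1.09 CPM, 95% interval 0.352 to 2.53), 1 in db/db control and 0 in db/m control. Of the 5, 4 lay in 3 of the 36 db/db fructose cells of the thick ascending limb-like cluster described further on. Distal convoluted tubule-like cells held 1 UMI, in db/db fructose, and endothelium-like cells 2, in db/db control. Connecting tubule and principal-like, intercalated-like, macula densa-like and thin limb-like cells held none. Cells of unnamed clusters carried 24 of the db/db fructose, 5 of the db/db control and 26 of the db/m control UMIs. One of them, led by Cd74, Ptgds, Sparc, Cryab and C3, had 4 Havcr1 UMIs in its 27 db/db fructose cells, 0 in its 11 db/db control cells and 25 in its 30 db/m control cells. The single db/m control cell with 23 UMIs belonged to it. Another, led by Ptgds, Cd74 and Dbi, had 14 Havcr1 UMIs in its 54 db/db fructose cells and none in its 4 db/db control cells and single db/m control cell. Of these 14 UMIs, 12 came from 1 cell.

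The cluster led by Cd74 and Ptgds carried other members too, without belonging to a named segment. Vcam1 was at 146 CPM in its db/db fructose, 361 in its db/db control and 184 in its db/m control cells. Krt8 was at 435 CPM in its db/db fructose, 581 in its db/db control and 626 in its db/m control cells, and Tnfrsf12a at 218 CPM in its db/db fructose, 141 in its db/db control and 271 in its db/m control cells. A further unnamed cluster, led by Atf3, Sparc, Ptgds, Tagln and Cryab, held 7 db/db fructose, 4 db/db control and 23 db/m control cells and no Havcr1 UMI. It had Krt8 at 276 CPM in its db/db fructose, 255 in its db/db control and 1032 in its db/m control cells, and Tnfrsf12a at 138 CPM in its db/db fructose, 340.4 in its db/db control and 494 in its db/m control cells.

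Vcam1 encodes vascular cell adhesion molecule 1, which binds white blood cells and marks tubule cells that have not recovered after injury. It lies on chromosome 3, 116109949 to 116129688, minus strand. Mononuclear phagocyte-like cells had 36.96 CPM (95% interval 23.7 to 55.00) in db/db fructose, 52.96 CPM (95% interval 35.7 to 75.6) in db/db control and 45.7 CPM (95% interval 21.9 to 84.1) in db/m control cells, and endothelium-like cells had 25.7 CPM (95% interval 19.9 to 32.6) in db/db fructose, 35.8 CPM (95% interval 28.5 to 44.3) in db/db control and 31.8 CPM (95% interval 22.7 to 43.3) in db/m control cells. These intervals overlapped between the classes in every library and between the libraries in each class, so no order is read from them. An endothelium-like cluster led by Mgp, Vim, Fbln5 and Gja4, of 70 db/db fructose, 44 db/db control and 17 db/m control cells, had Vcam1 at 200.2 CPM in its db/db fructose, 342 in its db/db control and 431 in its db/m control cells. The proximal tubule-like level of Vcam1 was 8.35 CPM in db/db fructose, 2.43 in db/db control and 6.75 in db/m control cells, the lowest in db/db control. Without the cluster of 44 cells highest in Havcr1 it was 8.09 in db/db fructose, 2.43 in db/db control and 4.56 in db/m control cells. Unnamed clusters held 35.2% of all Vcam1 UMIs in db/db fructose, 30.4% in db/db control and 52.9% in db/m control. Among them, the cluster led by Atf3 and Sparc had 316 CPM over the libraries together. Thick ascending limb-like cells had 3.04 CPM in db/db fructose, 2.07 in db/db control and 1.46 in db/m control cells. The free RNA estimate for Vcam1 was 4.39 CPM in db/db fructose, 1.89 in db/db control and 4.09 in db/m control. The thick ascending limb-like levels are therefore not clear of background.

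Tnfrsf12a encodes the receptor for the cytokine TWEAK (Fn14), which drives proliferation and inflammation in tubule cells. It lies on chromosome 17, 23675445 to 23677468, minus strand. In connecting tubule and principal-like cells it was at 55.3 CPM (95% interval 47.02 to 64.7) in db/db fructose, 22.02 CPM (95% interval 16.4 to 28.95) in db/db control and 24.5 CPM (95% interval 19.01 to 31.04) in db/m control cells, and the db/db fructose interval stood clear of the others. Thick ascending limb-like cells had 40.6 CPM in db/db fructose, 27.4 in db/db control and 6.56 in db/m control cells, and intercalated-like cells 46.6 in db/db fructose, 42.8 in db/db control and 22.1 in db/m control cells. Endothelium-like cells were close together, at 25.7 in db/db fructose, 34.9 in db/db control and 28.6 in db/m control cells. The proximal tubule-like level was 23.4 CPM in db/db fructose, 14.6 in db/db control and 25.3 in db/m control cells, and the db/db control value lay under the erythroid-like level and is read as background by that gauge. The erythroid-like levels rest on too few UMIs to place the other libraries clear of them. Subtracting the estimated free RNA leaves 10.04 in db/db fructose, 8.15 in db/db control and 15.05 in db/m control. The gauges differ, so proximal Tnfrsf12a is not called clear of background in any library. Of all Tnfrsf12a UMIs proximal tubule-like cells held 30.2% in db/db fructose, 24.03% in db/db control and 41.03% in db/m control. Within this class the early proximal segment-like cells had 26.8 in db/db fructose, 16.5 in db/db control and 42.8 in db/m control cells. The cluster of 44 cells highest in Havcr1 was named early proximal segment-like, and the early levels just given include it. It carried 76 of the 288 proximal db/m control UMIs, and without it the proximal tubule-like level was 23.4 in db/db fructose, 14.6 in db/db control and 19.3 in db/m control cells. The intervals of the first and second class overlapped in every library, so Tnfrsf12a had no leading segment.

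Krt8 and Krt18 encode the partner keratins that form the filaments of simple epithelia, and Krt19 a keratin of ducts that pairs with Krt8. Krt8 (chromosome 15, 101996698 to 102004482, minus strand) and Krt18 (chromosome 15, 102028180 to 102032027, plus strand) are neighbours, 23697 bases apart, and Krt19 lies on chromosome 11, 100140810 to 100148665, minus strand. Krt18 was the more restricted of the pair by segment. Connecting tubule and principal-like cells held this share of its UMIs: 67.6% in db/db fructose, 58.3% in db/db control and 79.2% in db/m control. Of the Krt8 UMIs they held 28.7% in db/db fructose, 29.9% in db/db control and 35.9% in db/m control. The level of Krt18 in principal-like cells was 577 CPM (95% interval 537 to 619) in db/db fructose, 524 CPM (95% interval 486 to 563) in db/db control and 664 CPM (95% interval 629.9 to 699) in db/m control cells. Proximal tubule-like cells had Krt18 at 7.72 CPM in db/db fructose, 12.1 in db/db control and 8.86 in db/m control cells, no higher than in erythroid-like cells in any library. For Krt8 the principal-like level was 364 CPM (95% interval 332 to 398) in db/db fructose, 354 CPM (95% interval 324 to 387) in db/db control and 448 CPM (95% interval 421 to 478) in db/m control cells. In connecting tubule-like cells it was 345 in db/db fructose, 229 in db/db control and 232 in db/m control cells. The proximal tubule-like level was 71.7 CPM (95% interval 67.4 to 76.3) in db/db fructose, 44.7 CPM (95% interval 40.9 to 48.7) in db/db control and 92.6 CPM (95% interval 87.1 to 98.4) in db/m control cells. The proximal Krt8 level was lowest in db/db control and stood above the erythroid-like level in each library. In db/db control the erythroid-like interval, 14.4 to 65.9 CPM on 8 UMIs, includes the proximal level. By this gauge the db/db control level is not clear of background.

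The make-up of the keratin pair was far apart between proximal and collecting duct-like cells in every library. Krt8 made up 90.3% (95% interval 88.4 to 91.96) of the Krt8 and Krt18 UMIs in proximal tubule-like db/db fructose, 78.6% (95% interval 75.3 to 81.7) in db/db control and 91.3% (95% interval 89.5 to 92.8) in db/m control cells (exact Clopper-Pearson intervals). In principal-like cells the share was 38.7% (95% interval 35.9 to 41.4) in db/db fructose, 40.4% (95% interval 37.6 to 43.2) in db/db control and 40.3% (95% interval 38.3 to 42.3) in db/m control cells, and connecting tubule-like cells had 41.3% in db/db fructose, 43.2% in db/db control and 40.5% in db/m control. Thick ascending limb-like cells had 79.7% in db/db fructose, 77.8% in db/db control and 87.4% in db/m control. For distal convoluted tubule-like cells it was 75.6% in db/db fructose, 70.1% in db/db control and 73.5% in db/m control. The proximal share in db/db control lay below both other libraries. There the proximal Krt8 level was the lowest and lay within the erythroid-like interval. The proximal Krt18 level was at background in every library, so the Krt18 part of the proximal shares is not read as transcription by these cells. In macula densa-like cells the share was 43.4% (95% interval 35.6 to 51.5) in db/db fructose, 64.5% (95% interval 54.9 to 73.4) in db/db control and 75.00% (95% interval 53.3 to 90.2) in db/m control, so that the db/db fructose share lay below the other libraries, with an interval that includes 50%.

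**Figure D3:**
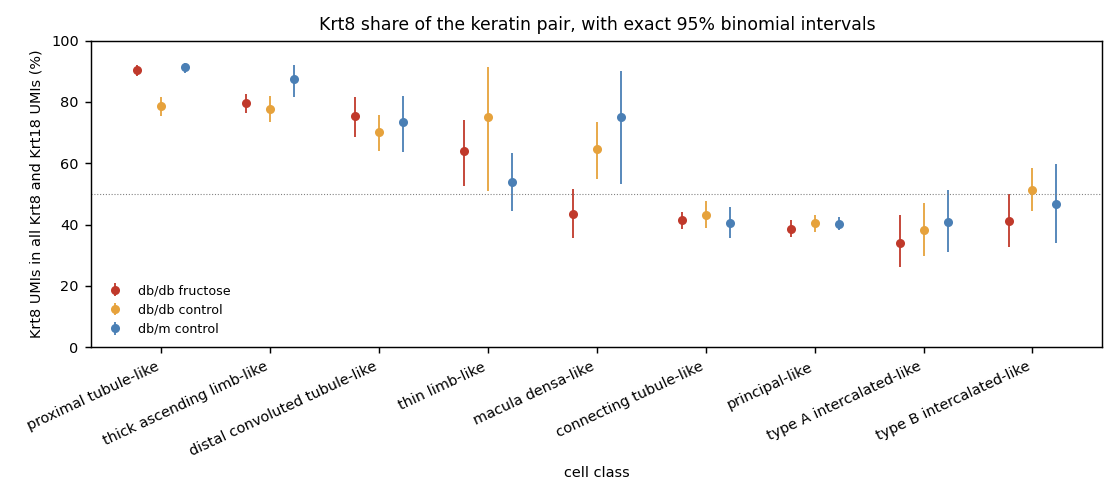
Krt8 as percent of the summed Krt8 and Krt18 UMIs in 9 tubule classes, 1 point per library with its exact 95% interval; the dotted line marks 50%. The proximal tubule-like points lie at 90.3% (db/db fructose), 78.6% (db/db control) and 91.3% (db/m control), and the principal-like points at 38.7% in db/db fructose, 40.4% in db/db control and 40.3% in db/m control.

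The pair is divergently transcribed, and the stretch before each start that is free of exons is shown because the results on the pair turn on these neighbouring genes (GRCm38.p6, each on its own strand). For Krt8 it is chr15:102004483-102004592, which ends 141 bases before the RefSeq transcript start, and for Krt18 chr15:102027966-102028179, which ends 37 bases before it. None of the 7 motifs was found in either, so there are no capitals.
Krt8: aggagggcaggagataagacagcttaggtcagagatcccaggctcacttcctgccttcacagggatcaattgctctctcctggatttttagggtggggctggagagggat
Krt18: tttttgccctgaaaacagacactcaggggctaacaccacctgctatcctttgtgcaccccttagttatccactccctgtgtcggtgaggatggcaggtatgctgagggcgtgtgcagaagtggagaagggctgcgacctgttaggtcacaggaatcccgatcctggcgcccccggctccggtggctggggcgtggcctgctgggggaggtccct

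Krt19 was scarce, with 134 UMIs in db/db fructose, 54 in db/db control and 57 in db/m control. Of the named classes thin limb-like cells had the highest level, at 58.99 CPM in db/db fructose, 20.1 in db/db control and 125 in db/m control cells, on counts of 7 in db/db fructose, 1 in db/db control and 20 in db/m control. Connecting tubule and principal-like cells had 15.9 CPM in db/db fructose, 12.5 in db/db control and 7.92 in db/m control cells. Thick ascending limb-like cells had 11.5 CPM in db/db fructose, 3.10 in db/db control and 0.365 in db/m control cells, and 39 of the 53 db/db fructose UMIs lay in the cluster of 36 cells.

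That thick ascending limb-like cluster held 50 cells, 36 of db/db fructose, 12 of db/db control and 2 of db/m control. Its leading genes were Clu, Lcn2, Wfdc2, Ly6a, Lgals3, Spp1, Hspb1, S100a6, Tmsb10 and Atf3, none of them a thick ascending limb marker, although the 10 genes were left out when clusters were formed. Its cells were deeper than the other thick ascending limb-like cells, with medians of 6015.5 UMIs in db/db fructose, 5018 UMIs in db/db control and 3737.5 UMIs in db/m control. The other cells had 1518.5 in db/db fructose, 1612.5 in db/db control and 1823 in db/m control. Of the thick ascending limb markers, Slc12a1 was at 1999 CPM in the cluster and 5864 CPM in the other cells, Umod at 3276 CPM in the cluster and 7032 CPM in the other cells, and Egf at 314 CPM in the cluster and 6697 CPM in the other cells. Cldn16 was at 176 CPM in the cluster and 83.4 CPM in the other cells. The 12 thick ascending limb markers summed to 7277 CPM in db/db fructose, 10924 CPM in db/db control and 10301 CPM in db/m control cells of the cluster, and to 24427 CPM in db/db fructose, 18021 CPM in db/db control and 26099 CPM in db/m control cells outside it. The 9 principal markers summed to 171 CPM in db/db fructose, 125 CPM in db/db control and 401 CPM in db/m control cells of the cluster (the last from 3 UMIs of 1 marker), and to 211 CPM in db/db fructose, 292 CPM in db/db control and 214 CPM in db/m control cells outside it. The 5 connecting tubule markers summed to 6883 CPM in db/db fructose, 18264 CPM in db/db control and 20468 CPM in db/m control cells of the cluster, and to 7405 CPM in db/db fructose, 7381 CPM in db/db control and 4323 CPM in db/m control cells outside it. In the db/db control and db/m control cells of the cluster this sum was above that of the thick ascending limb markers, and in the 2 db/m control cells all of it was Klk1. The 4 macula densa markers summed to 34.3 CPM in db/db fructose, 47.0 CPM in db/db control and 669 CPM in db/m control cells of the cluster (10 UMIs in db/db fructose, 3 in db/db control and 5 in db/m control), and to 68.1 CPM in db/db fructose, 46.2 CPM in db/db control and 20.8 CPM in db/m control cells outside it. The 21 proximal markers summed to 2248 CPM in db/db fructose, 1815 CPM in db/db control and 3746 CPM in db/m control cells of the cluster, and to 7362 CPM in db/db fructose, 6051 CPM in db/db control and 8730 CPM in db/m control cells outside it. Of the 9 neutrophil markers 1 UMI was found in the cluster, with S100a8 and S100a9 at 0. The 13 mononuclear phagocyte markers gave 61.7 CPM in db/db fructose, 47.0 CPM in db/db control and 0 in db/m control cells of the cluster, and 64.0 CPM in db/db fructose, 57.0 CPM in db/db control and 21.9 CPM in db/m control cells outside it, with C1qa, Csf1r and Lyz2 at 0 in the cluster.

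In the cluster Lcn2 reached 1638 CPM in db/db fructose and 610.4 CPM in db/db control cells, and no UMI was found in the 2 db/m control cells, which allows 401 CPM. Clu reached 11734.5 CPM in db/db fructose and 4116 CPM in db/db control cells, with 2 UMIs in db/m control, and 887 of the 3425 db/db fructose UMIs came from 1 cell. Spp1 was at 32966 CPM in db/db fructose, 7919 in db/db control and 1070.2 in db/m control cells. Krt8 was at 740.0 CPM in db/db fructose, 861 in db/db control and 535 in db/m control cells, and Tnfrsf12a at 216 in db/db fructose, 282 in db/db control and 134 in db/m control cells. Krt19 was at 134 CPM in db/db fructose and 125 CPM in db/db control cells. Vcam1 had no UMI in it. Across all thick ascending limb-like db/db fructose cells thinned to 1000 UMIs, 19 of 31 cells with an Lcn2 UMI (61.3%) also held Clu, against 15.6% of the rest, and 16 of those 31 cells were of the cluster. Outside the cluster it was 6 of 15 cells (40%), against 14.9% of the rest.

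**Figure D4:**
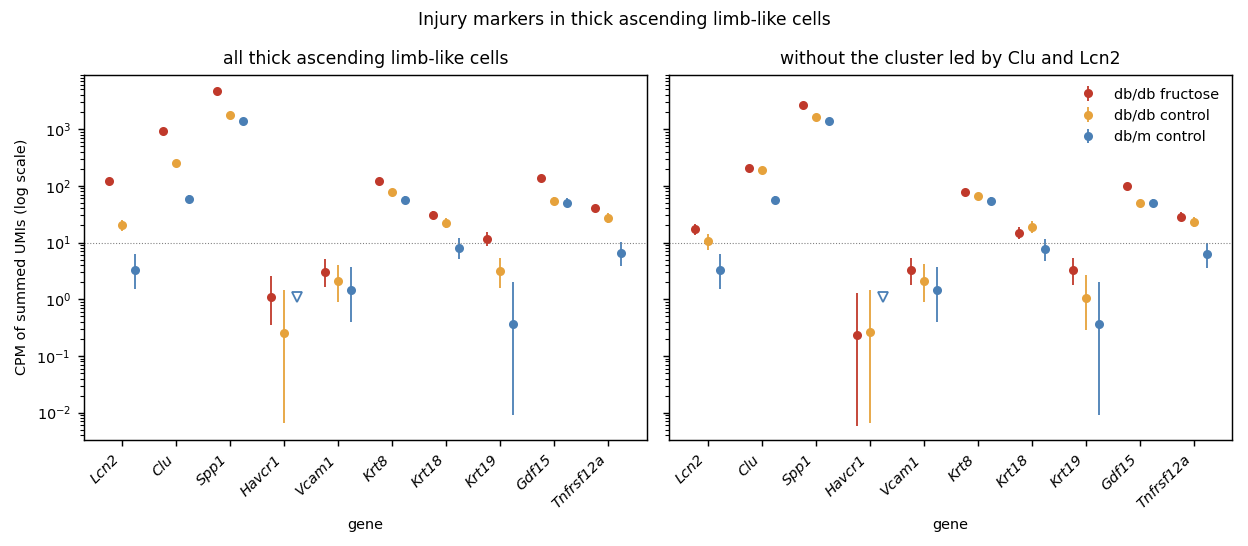
CPM of the 10 genes (log scale) in all thick ascending limb-like cells (left panel) and in those outside the cluster of 50 cells (right panel), 1 point per library with its exact Poisson 95% interval; an open triangle marks the 3-count limit where no UMI was found and the dotted line 10 CPM. Without the cluster the db/db fructose Lcn2 level is 17.1 CPM instead of 119.8 CPM and the Clu level 203 CPM instead of 933 CPM.

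Between libraries, a gene counted as measured in a class once it reached 10 CPM in 1 of the pair, and as higher or lower once its ratio passed 1.5-fold. The share of all measured genes past that ratio is given as background. The median measured gene itself was higher in db/db fructose than in db/db control by a log2 ratio of 0.25 in distal convoluted tubule-like cells and 0.26 in each of the other 3 classes. Median-of-ratios scaling lowers every log2 ratio of this comparison by 0.24 to 0.25, and raises those of db/db control over db/m control by 0.01 to 0.20. The medians of db/db control over db/m control were −0.02 in proximal tubule-like, 0.00 in thick ascending limb-like, −0.17 in distal convoluted tubule-like and −0.15 in connecting tubule and principal-like cells.

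In thick ascending limb-like cells, 6 of 8 measured members were higher in db/db fructose than in db/db control and none was lower, beside 12.7% of all genes higher and 1.15% lower (4.09% and 2.93% with median-of-ratios scaling). Lcn2 had a log2 ratio of 2.55 (95% interval 2.21 to 2.91), Clu 1.86 (95% interval 1.76 to 1.96), Krt19 1.89 (95% interval 0.97 to 2.93), Spp1 1.40 (95% interval 1.36 to 1.44), Gdf15 1.33 (95% interval 1.10 to 1.56) and Krt8 0.64 (95% interval 0.43 to 0.84), the last of which fell short of 1.5-fold with median-of-ratios scaling (0.39). The median member was at 1.37. Outside the cluster of 50 cells 3 of 7 members were higher, beside 12.7% of genes (4.09% with median-of-ratios scaling): Gdf15 at 1.00 (95% interval 0.75 to 1.26), Spp1 at 0.71 (95% interval 0.67 to 0.76) and Lcn2 at 0.71 (95% interval 0.13 to 1.30). Clu was at 0.07 there, and the median member at 0.32. The db/db fructose Lcn2 level outside the cluster, 17.1 CPM, lay under the erythroid-like 23.5 CPM of that library and is read as background. The free RNA estimate for Lcn2 was 14.6 CPM in db/db fructose and 3.79 CPM in db/db control. With median-of-ratios scaling, Gdf15 alone kept its call outside the cluster (0.77, against 0.48 for Spp1 and 0.47 for Lcn2). Erythroid-like Spp1 was higher in db/db fructose too, at a log2 ratio of 0.95 (95% interval 0.61 to 1.29). With the estimated free RNA subtracted, Spp1 in all thick ascending limb-like cells was at 3812 in db/db fructose, 1415 in db/db control and 1182 in db/m control (CPM). Gdf15 was then at 58.1 in db/db fructose, 20.6 in db/db control and 0 in db/m control. The free RNA estimate for Gdf15 was itself higher in db/db fructose (79.04 CPM) than in db/db control (33.9 CPM). No subtraction was made for the cells outside the cluster alone.

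In the same cells of db/db control over db/m control, 4 of 7 members were higher and none was lower, beside 6.57% of genes higher and 5.65% lower (6.84% and 5.35% with median-of-ratios scaling). Lcn2 had a log2 ratio of 2.64 (95% interval 1.64 to 3.82), Clu 2.15 (95% interval 1.91 to 2.40), Tnfrsf12a 2.06 (95% interval 1.33 to 2.87) and Krt18 1.47 (95% interval 0.78 to 2.22). The median member was at 1.47. Outside the cluster the same 4 of 7 were higher, beside 6.39% of genes, at 1.89 for Tnfrsf12a, 1.75 for Clu, 1.67 for Lcn2 and 1.28 for Krt18. The erythroid-like Clu level was also higher in db/db control than in db/m control (142 against 56.01 CPM), and the thick ascending limb-like db/m control levels of all 4 lay near or under background. Outside the cluster the db/db control Clu level lay within the erythroid-like interval.

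In distal convoluted tubule-like cells, 5 of 7 members were higher in db/db fructose than in db/db control and none lower, beside 16.0% of genes higher and 1.78% lower (5.94% and 5.22% with median-of-ratios scaling). Lcn2 had a log2 ratio of 3.19 (95% interval 2.15 to 4.41), on 46 UMIs in db/db fructose against 9 in db/db control, and neither level was clear of background. Spp1 was at 1.56 (95% interval 1.49 to 1.63), Gdf15 at 1.52 (95% interval 1.30 to 1.75), Clu at 1.16 (95% interval 1.06 to 1.26) and Tnfrsf12a at 0.66 (95% interval 0.16 to 1.15), the last of which came out under 1.5-fold with median-of-ratios scaling (0.40). The median member was at 1.16. With the estimated free RNA subtracted, the distal convoluted tubule-like Spp1 level was 1917 in db/db fructose, 587 in db/db control and 511 in db/m control (CPM), and that of Clu 901 in db/db fructose, 398 in db/db control and 543 in db/m control. Of the 6 members measured in db/db control over db/m control, none was higher and none lower, beside 3.41% of genes higher and 13.2% lower (6.84% and 6.61% with median-of-ratios scaling), with log2 ratios between −0.27 for Clu and 0.31 for Spp1.

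In connecting tubule and principal-like cells, 3 of 8 members were higher in db/db fructose than in db/db control and none lower, beside 19.4% of genes higher and 2.60% lower (7.72% and 6.15% with median-of-ratios scaling). These were Tnfrsf12a at 1.33 (95% interval 0.87 to 1.81), Clu at 1.06 (95% interval 0.98 to 1.14) and Gdf15 at 0.89 (95% interval 0.80 to 0.97), and the median member was at 0.37. The class mixed 434 connecting tubule-like with 387 principal-like cells in db/db fructose. In db/db control it mixed 364 with 477, and in db/m control 176 with 528. In principal-like cells alone Tnfrsf12a was at 1.37, Clu at 0.84 and Gdf15 at 0.61, and Lcn2 at 0.73, and in connecting tubule-like cells Gdf15 was at 1.37, Tnfrsf12a at 1.24 and Clu at 0.79. In db/db control over db/m control, 4 of 8 were higher and none lower, beside 6.58% of genes higher and 14.4% lower (10.3% and 8.14% with median-of-ratios scaling): Spp1 at 1.84 (95% interval 1.74 to 1.95), Clu at 1.54 (95% interval 1.42 to 1.66), Lcn2 at 1.15 (95% interval 0.85 to 1.45) and Krt19 at 0.66 (95% interval −0.19 to 1.53), the last with an interval that includes 0. In principal-like cells alone Spp1 was at 1.95, Clu at 1.49, Lcn2 at 1.43 and Krt19 at 2.03. The principal-like Spp1 level of db/m control lay under the erythroid-like level and is read as background. Erythroid-like Spp1 was itself higher in db/db control than in db/m control. In connecting tubule-like cells Spp1 was at 1.18 and Clu at 0.93, so that the class ratio of Clu lay above those of both parts. Krt19 went the other way there, at −1.90 (95% interval −3.74 to −0.32) (5 UMIs in db/db control and 13 in db/m control).

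In proximal tubule-like cells, 3 of 6 members were higher and 1 lower in db/db fructose than in db/db control, beside 11.9% of genes higher and 1.42% lower (3.81% and 3.09% with median-of-ratios scaling). Krt8 was at 0.68 (95% interval 0.53 to 0.84), Tnfrsf12a at 0.68 (95% interval 0.41 to 0.96) and Spp1 at 0.60 (95% interval 0.56 to 0.64), and all 3 came out under 1.5-fold with median-of-ratios scaling (0.43, 0.43 and 0.35). With the estimated free RNA subtracted the direction of proximal Spp1 turned, to 132 in db/db fructose, 280.2 in db/db control and 21.1 in db/m control (CPM). The Tnfrsf12a level of db/db control lay under the erythroid-like level, and that of db/db fructose was not clear of background either. With the estimated free RNA subtracted, Tnfrsf12a was at 10.04 in db/db fructose and 8.15 in db/db control (CPM). Krt18 was lower, at −0.65 (95% interval −1.03 to −0.28), at levels read as background. In db/db control over db/m control, 2 of 6 were higher and 2 lower, beside 6.92% of genes higher and 14.3% lower (7.06% and 14.1% with median-of-ratios scaling). Clu was at 2.02 (95% interval 1.84 to 2.21) and Spp1 at 1.27 (95% interval 1.21 to 1.34), both at or close to background levels. Those lower were Krt8 at −1.05 (95% interval −1.21 to −0.90) and Tnfrsf12a at −0.79 (95% interval −1.08 to −0.51), the last with a db/db control level read as background by the erythroid-like gauge. The db/m control level of Tnfrsf12a was not called clear of background. The db/db control level of Krt8 lay within the erythroid-like interval. Without the cluster of 44 cells highest in Havcr1, 2 were higher and 1 lower, beside 6.79% of genes higher and 12.0% lower: Krt8 was at −0.85 (95% interval −1.01 to −0.70) and Tnfrsf12a, at −0.41 (95% interval −0.71 to −0.11), lost its call. In db/db fructose over db/db control 2 were then higher and 1 lower, beside 11.9% of genes higher and 1.43% lower, and Spp1 lost its call at 0.58. Median mitochondrial shares of these cells were 9.25% in db/db fructose, 20.9% in db/db control and 14.5% in db/m control, and Krt8 and Tnfrsf12a were lowest where the share was highest. Its part in the result was not tested.

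**Figure D5:**
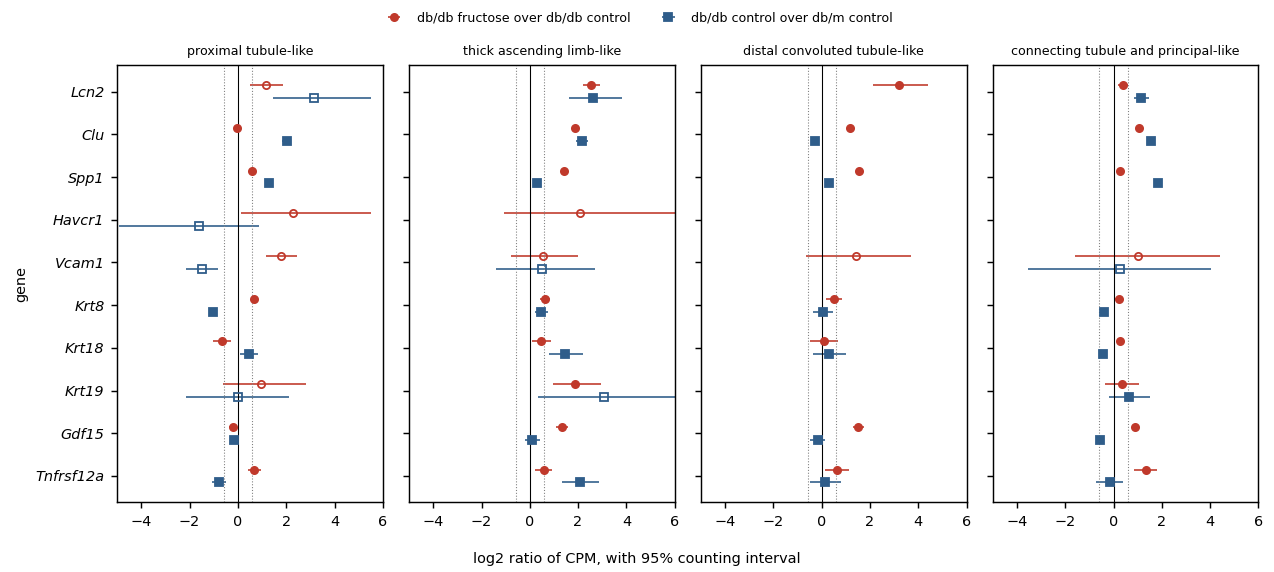
Log2 ratio of each gene in 4 classes, db/db fructose over db/db control (red circles) and db/db control over db/m control (blue squares), with exact 95% counting intervals, some of which run past the axis; open symbols are under 10 CPM in both libraries and dotted lines mark 1.5-fold. Red circles for Lcn2, Spp1 and Gdf15 lie right of the line in both thick ascending limb-like and distal convoluted tubule-like cells.

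A list of 48 other injury and repair genes, written with earlier results of these data known, was read in the same way. In thick ascending limb-like cells 14 of 25 measured were higher and none lower in db/db fructose than in db/db control. Beside them, 12.7% of all genes were higher and 1.15% lower. The median log2 ratio of the listed genes was 0.71. In all these cells the highest ratio was that of a calcium-binding protein gene, S100a6 at 62.9 CPM in db/db fructose and 20.9 CPM in db/db control (log2 ratio 1.59). The matrix growth factor gene came next, Ccn2 at 49.3 CPM in db/db fructose and 17.04 CPM in db/db control (log2 ratio 1.53). The lowest ratios were Cxcl10 at 36.7 CPM in db/db fructose and 47.3 CPM in db/db control (log2 ratio −0.37) and Cdkn1a at 39.1 CPM in db/db fructose and 42.4 CPM in db/db control (log2 ratio −0.12). Outside the cluster of 50 cells 5 of 23 were higher, beside 12.7% of genes, with a median of 0.30. The highest ratios there were Ccn2 at 49.6 CPM in db/db fructose and 17.3 CPM in db/db control (log2 ratio 1.52) and C3 at 35.5 CPM in db/db fructose and 14.97 CPM in db/db control (log2 ratio 1.24). Over the libraries together S100a6 was at 754 CPM in the cluster and 9.39 CPM in the other thick ascending limb-like cells. In db/db control over db/m control, 6 of 23 were higher and 1 lower (median 0.12), beside 6.57% of genes higher and 5.65% lower. Complement C3 led at 14.7 CPM in db/db control and 1.09 CPM in db/m control (log2 ratio 3.75, 95% interval 2.13 to 6.07, from 57 against 3 UMIs). Next came S100a6 at 20.9 CPM in db/db control and 1.82 CPM in db/m control (log2 ratio 3.52). At the low end were Timd2 at 5.94 CPM in db/db control and 11.3 CPM in db/m control (log2 ratio −0.93) and Dcdc2a at 13.4 CPM in db/db control and 16.8 CPM in db/m control (log2 ratio −0.32).

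Of the 23 listed genes measured in distal convoluted tubule-like cells, 9 were higher and none lower in db/db fructose than in db/db control (median 0.42). Beside them, 16.0% of all genes were higher and 1.78% lower. The stress transcription factor gene led, Atf3 at 115 CPM in db/db fructose and 44.4 CPM in db/db control (log2 ratio 1.37), then Dcdc2a at 34.6 CPM in db/db fructose and 13.6 CPM in db/db control (log2 ratio 1.34). The lowest were S100a6 at 9.07 CPM in db/db fructose and 11.1 CPM in db/db control (log2 ratio −0.29) and Cdkn1a at 30.1 CPM in db/db fructose and 34.9 CPM in db/db control (log2 ratio −0.21). Between db/db control and db/m control, 6 of 22 were higher and 2 lower (median 0.23), beside 3.41% of genes higher and 13.2% lower. A chemokine gene led, Cxcl10 at 15.5 CPM in db/db control and 0.726 CPM in db/m control (log2 ratio 4.42, 95% interval 1.87 to 9.75, from 49 against 1 UMIs). It was followed by S100a6 at 11.1 CPM in db/db control and 1.45 CPM in db/m control (log2 ratio 2.93, 95% interval 0.97 to 6.04, from 35 against 2 UMIs). Those called lower were Dcdc2a at 13.6 CPM in db/db control and 24.7 CPM in db/m control (log2 ratio −0.86) and Timd2 at 6.97 CPM in db/db control and 12.3 CPM in db/m control (log2 ratio −0.82).

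Connecting tubule and principal-like cells had 13 of 27 higher and 1 lower in db/db fructose than in db/db control (median 0.57). Beside them, 19.4% of all genes were higher and 2.60% lower. The highest ratios were Dcdc2a at 19.4 CPM in db/db fructose and 6.91 CPM in db/db control (log2 ratio 1.49) and Cxcl10 at 15.9 CPM in db/db fructose and 6.48 CPM in db/db control (log2 ratio 1.29). The gene of a modulator of NF-kB was lower, Nfkbiz at 75.4 CPM in db/db fructose and 114 CPM in db/db control (log2 ratio −0.59), and Prom1 at 49.00 CPM in db/db fructose and 55.3 CPM in db/db control (log2 ratio −0.17) came next. Only 2 of 23 were higher and 4 lower in db/db control than in db/m control, beside 6.58% of genes higher and 14.4% lower. Those higher were S100a6 at 27.6 CPM in db/db control and 10.8 CPM in db/m control (log2 ratio 1.36) and Sox4 at 74.3 CPM in db/db control and 47.2 CPM in db/m control (log2 ratio 0.65). Of the 4 lower, the lowest were the annexin genes, Anxa1 at 39.3 CPM in db/db control and 86.4 CPM in db/m control (log2 ratio −1.14) and Anxa2 at 65.2 CPM in db/db control and 126 CPM in db/m control (log2 ratio −0.95). The median there was −0.26.

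Proximal tubule-like cells had 11 of 29 higher and none lower in db/db fructose than in db/db control (median 0.51). Beside them, 11.9% of all genes were higher and 1.42% lower. The ceruloplasmin gene led, Cp at 13.9 CPM in db/db fructose and 3.90 CPM in db/db control (log2 ratio 1.83), then Ccn2 at 35.5 CPM in db/db fructose and 10.7 CPM in db/db control (log2 ratio 1.74). The lowest were Krt7 at 28.2 CPM in db/db fructose and 38.1 CPM in db/db control (log2 ratio −0.43) and Itgb6 at 142 CPM in db/db fructose and 175 CPM in db/db control (log2 ratio −0.31). In db/db control over db/m control 5 of 24 were higher and 7 lower (median −0.11), beside 6.92% of genes higher and 14.3% lower. The highest were S100a6 at 10.1 CPM in db/db control and 2.63 CPM in db/m control (log2 ratio 1.95) and C3 at 27.8 CPM in db/db control and 8.33 CPM in db/m control (log2 ratio 1.74). The gene of a macrophage growth factor was lowest, Il34 at 1.39 CPM in db/db control and 17.3 CPM in db/m control (log2 ratio −3.64), and a relative of Havcr1 next, Timd2 at 15.9 CPM in db/db control and 42.6 CPM in db/m control (log2 ratio −1.43). In both comparisons the medians of all measured genes and the shares with median-of-ratios scaling are those given above for each class. Calls of the listed genes with that scaling, and their levels in blood cells, are not given here.

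Likeness was read from log2(CPM + 10) over 8 classes in 3 libraries, 24 values that share libraries and depth, among 6989 genes that reached 50 CPM, and is a description only. The genes most like Lcn2 by Pearson r were Peli2 (0.83) and L1cam (0.78). Among those most like Gdf15 were Tmem178 (0.95) and Pappa (0.94), and among those most like Krt19 were Tmem178 and Lcn2 (0.87 each). Spire2 and Cldn4 (0.97 each) were among those most like Krt18, and Krt8 was most like Arhgap24, Cdh16 (0.96 each) and Rgl3 (0.95). Spp1 was most like Klk1 (0.93), Gm53 (0.88) and Fbxo44 (0.87), and Clu most like Mal (0.85), Sorbs2 (0.84) and Dach1 (0.83). Vcam1 was most like H2-Q7, Dusp1 and BC028528 (0.97 each). For Tnfrsf12a the highest values were 0.73 (Smad4 and Parp4) and 0.72 (Phactr2). For Havcr1, whose level stayed at or under 1.09 CPM in these classes, they were 0.67 (Hivep1), 0.66 (Eif4g3) and 0.65 (Akap11), from near-zero counts.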

How the data were processed

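Raw UMI counts per gene and barcode were used as the authors deposited them, made with Cell Ranger 6.0.0 and mm10 per the submitters' processing notes. Barcodes with over 50% mitochondrial UMIs (1057 in db/db fructose, 5292 in db/db control and 2267 in db/m control) or under 200 genes (13, 58 and 18 in the same order) were removed. The highest Scrublet scores were removed as doublets at 0.8% per 1000 barcodes (3324 in db/db fructose, 5624 in db/db control and 1463 in db/m control). The 3 libraries were clustered together with scanpy 1.11.5 (2000 variable genes without the members and mitochondrial genes, 30 components, 15 neighbours, Leiden resolution 1 and a second round). Clusters were named from fixed markers of 22 classes by a rule set after the clusters had been seen, so other namings may differ. Counts were summed per class and library. Sums of 0 were set to 3 counts for limits. The members and lists were chosen with earlier results of these data known. Every member was named in each class with at least 20 of its UMIs in 1 library or as its highest class, with the 3 genes most like it (some are not reported here), and for the list of 48 the extreme ratios with at least 20 counts. Python 3.11.15, numpy 2.4.6, scipy 1.17.1 and pandas 2.3.3 were used. The counting was tested on simulated data.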

Additional observations from a re-analysis of the deposited data

How the results depend on the processing

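Of 217 values computed under alternatives, 186 kept within 1.5 times the reported count and 31 did not. No paired analysis was possible because each group has 1 library. The cause of a difference was not tested. In proximal tubule-like cells the 2 members lower in db/db control over db/m control became 1 without the cluster highest in Havcr1 (chosen after seeing the data), with Leiden resolution 2, with each library clustered on its own, with each cell classed by its highest summed marker level, with mean per-cell CPM and with cells thinned to 1000 UMIs. The 3 members higher in db/db fructose over db/db control became 0 with median-of-ratios size factors, 0 with free RNA subtracted, 1 with thinned cells and 5 at a minimum of 1 CPM, and the 1 lower became 0 without doublet removal and 3 with free RNA subtracted. In thick ascending limb-like cells the 6 members higher in db/db fructose over db/db control became 3 with Leiden resolution 2, 2 with each library clustered on its own and 3 without the cluster led by other genes, the last chosen after seeing the data; the 4 higher in db/db control over db/m control stayed at 4 or 5 under all 14 alternatives. In distal convoluted tubule-like cells the 5 higher in db/db fructose became 3 at 30% mitochondrial UMIs, 3 at 500 genes and 2 with each library clustered on its own, and the 0 lower became 1 at 500 genes. For db/db control over db/m control the 0 higher became 1 at 500 genes, 2 with free RNA subtracted and 1 with thinned cells, and the 0 lower became 1 with per-cell classes and 1 at 1 CPM. In connecting tubule and principal-like cells, per-cell classes gave 7 higher in db/db fructose instead of 3, 2 higher instead of 4 and 3 lower instead of 0 in db/db control over db/m control. There 1 was lower without doublet removal, and 1 was lower in db/db fructose with thinned cells. Members with 1 highest class numbered 3 with per-cell classes and 4 with classes of 10 cells, the last chosen after seeing the data, instead of 7. Free RNA was estimated at 43.3% of UMIs in db/db fructose, 36.4% in db/db control and 41.9% in db/m control from 25, 17 and 16 lymphocyte-like cells. Havcr1 and Krt19 rest on few UMIs. With 1 library per group no value shows a difference between the conditions rather than between these libraries.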
